A study of Mus musculus with 6 samples.

Results

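The genes through which the liver makes, takes up, stores and exports cholesterol were examined in mice that lack arylsulfatase B (ARSB), a sulfatase of the lysosome that works on the ends of chondroitin sulfate and dermatan sulfate chains. The set had 30 members, listed by function, and 27 of them were measured, out of 19938 genes that had a probe set with exactly 1 gene symbol. Each gene was read on its brightest such probe set by the mean over all 6 arrays. Acat2, the cytosolic thiolase at the head of the pathway, and the sterol esterification enzymes Soat1 and Soat2 had no probe set of this kind in the annotation used and were not analysed here.

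Whole liver was compared between 3 homozygous ARSB-null mice and 3 C57BL/6J control mice, numbered 4, 5 and 6 in either group, with 1 array for each animal. All were males aged 12 weeks on the C57BL/6J background, and none was treated. The null animals came from a homozygous colony kept under similar conditions, and the sources used here do not say whether any null and control animals were littermates, or at what hour and in what feeding state they were killed. Differences between colonies therefore cannot be told apart from differences due to genotype. Arsb itself had a log2 signal of 7.63, 7.46 and 7.64 in the ARSB-null livers, against 10.21, 10.23 and 10.21 in the control livers, so the arrays carried the genotype their labels gave.

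Cholesterol is built from acetyl-CoA by the mevalonate pathway, which leads to squalene, and by a chain of enzymes of the endoplasmic reticulum that close and trim the sterol rings. The transcription factor SREBP2, encoded by Srebf2, controls most of these enzymes. When membranes hold enough sterol, SREBP2 and its escort Scap are kept in the endoplasmic reticulum by Insig1 and Insig2. When sterol is short, Scap carries SREBP2 to the Golgi, where it is cut, and the freed part enters the nucleus and binds sterol regulatory elements. Surplus sterol acts the other way through LXR nuclear receptors, which raise the efflux transporters Abca1 and Abcg1, the receptor-degrading ligase Mylip and the lipogenic factor Srebf1.

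Promoter sequence, where SREBP2 binds the genes it controls, is shown for 3 members from the RefSeq promoters of build GRCm38.p6, each spanning 250 bases before to 50 bases after the annotated start. Promoters were held for 23 of the 30 members, and no sequence is shown for Fdps, Fdft1, Abcg1, Scarb1, Sqle, Stard4 and Soat2. The search was for the sterol regulatory element TCACNCCAC, with any base at N, and for CCAAT, the box bound by NF-Y, a usual partner of SREBP2, both on either strand, and the letters of both do not overlap in the promoters shown. Hmgcs1 is shown because it was the member whose promoter held this exact form of the element. Other forms were not searched for, so a promoter without a match may still hold one. Hsd17b7 and Mvd were chosen after their values were seen, since they had the smallest p of the members. Each is written 5′ to 3′ on the strand of its gene, with the sterol regulatory element and every CCAAT or its complement ATTGG in capitals.
Hmgcs1, chr13:119690101-119690400, plus strand: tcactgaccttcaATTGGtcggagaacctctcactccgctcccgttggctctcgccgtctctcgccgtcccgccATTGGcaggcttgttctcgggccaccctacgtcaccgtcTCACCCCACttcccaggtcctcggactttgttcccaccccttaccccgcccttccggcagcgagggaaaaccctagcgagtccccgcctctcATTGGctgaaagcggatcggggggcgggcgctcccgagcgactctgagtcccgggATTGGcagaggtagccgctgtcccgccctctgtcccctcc
Hsd17b7, chr1:169969156-169969455, minus strand: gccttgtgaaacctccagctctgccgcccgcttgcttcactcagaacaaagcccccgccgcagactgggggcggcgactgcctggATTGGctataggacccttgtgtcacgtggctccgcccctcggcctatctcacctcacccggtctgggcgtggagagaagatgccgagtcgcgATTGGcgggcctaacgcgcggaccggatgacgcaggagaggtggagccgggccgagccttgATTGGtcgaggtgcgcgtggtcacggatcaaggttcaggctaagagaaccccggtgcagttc
Mvd, chr8:122443373-122443672, minus strand: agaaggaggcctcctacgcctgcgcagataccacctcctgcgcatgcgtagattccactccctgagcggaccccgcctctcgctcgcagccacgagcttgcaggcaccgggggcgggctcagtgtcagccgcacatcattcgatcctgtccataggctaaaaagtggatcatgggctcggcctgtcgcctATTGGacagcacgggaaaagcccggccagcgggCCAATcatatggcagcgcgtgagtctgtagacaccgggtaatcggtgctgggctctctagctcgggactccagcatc
The element in Hmgcs1 reads TCACCCCAC and lies at position -137 from the start. It was found in 1 of the 29 member promoters (some genes have more than 1) and in 1.24% of 32851 promoters of all genes. CCAAT was found in 20 of the 29 (69.0%), against 37.4% of all promoters, and by gene in 13 of the 14 synthesis enzymes that had a promoter. The E-box CACGTG was found in 7 of the 29 (24.1%), against 7.15% of all promoters, and the GC box GGGCGG in 24 (82.8%), against 35.7%. Windows of 1 gene can overlap, and those of Scap held the same E-box site. By gene, the E-box was found for 6 and the GC box for 21 of the 23 members with a promoter. These are matches of letters in a fixed window, without any measure of binding.

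Across the genes, no member differed between ARSB-null and control liver past the threshold. The differences were small, with 17 members higher and 10 lower in mean, and the 2 smallest p values belonged to Hsd17b7 and Mvd, both lower in the ARSB-null livers. In limma's moderated test over all 35556 probe sets, 0 of 27 members had an adjusted p under 0.05, and the smallest was 0.654. The methods' analysis of variance also gave 0. Among all probe sets, 0.0197% passed this threshold in either direction. At an unadjusted p under 0.05, 0 members were higher (2.75% of all probe sets were) and 2 were lower, or 7.41% of the members, against 3.19% of all probe sets. The groups did not overlap, and ARSB-null was the higher, for Scap and Stard4 (7.41% of the members, against 5.14% of all probe sets). They did not overlap, and ARSB-null was the lower, for Hsd17b7, Mvd, Insig1, Insig2 and Abca1 (18.5% of the members, against 6.78% of all probe sets). The median log2 difference of the members was 0.043, beside 0.0015 for all probe sets, and the median of its size without the sign was 0.11, beside 0.10.

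The array signals gave a 95% interval for each gene on its own, not for all 27 jointly. The standard error of the log2 difference lay between 0.092 and 0.14 for all 27, and the 95% intervals together ran between -0.64 and 0.52, so that the largest fold in either direction inside any interval was 1.56. The SD within groups had a median of 0.11 over the members (range 0.050 to 0.19), against 0.17 over all probe sets and 0.15 over those above the median signal. The mean log2 signals of the members reached from 8.29 to 13.02, on arrays whose medians were 6.50 to 6.60. The number of arrays limits this precision, and an exact permutation test of 3 livers against 3 cannot give a two-sided p below 0.1.

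**Figure D1:**
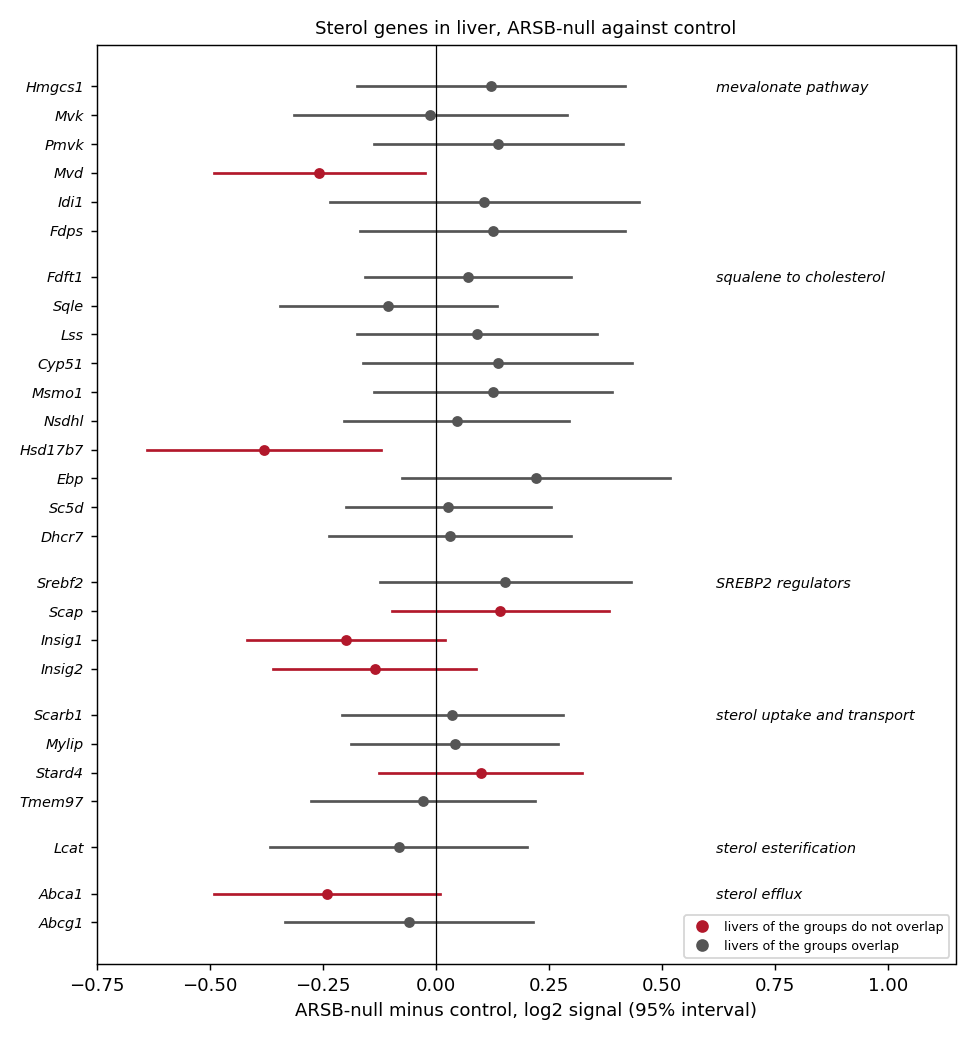
Log2 difference, ARSB-null minus control (horizontal axis), with its 95% interval from limma, for the 27 measured sterol genes by function (rows). Red marks genes whose livers did not overlap between groups. The intervals of Hsd17b7 and Mvd lie wholly below 0, the other 25 cover 0, and none goes beyond -0.64 or 0.52.

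In the mevalonate pathway, 6 of the 7 enzymes were measured, and the ARSB-null mean was the higher for 4 and the lower for 2. Hmgcs1 makes the HMG-CoA from which mevalonate is formed. It had log2 signals of 11.53, 11.87 and 11.77 in ARSB-null mice 4, 5 and 6, against 11.55, 11.72 and 11.52 in control mice 4, 5 and 6. The groups overlapped, with ARSB-null mouse 4 among the controls, and the log2 difference was 0.12 (standard error 0.13, adjusted p = 0.987 from limma). The kinases that follow, Mvk and Pmvk, differed by -0.012 and 0.14, with groups that overlapped.

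Mvd, the decarboxylase that makes isopentenyl pyrophosphate, was lower in the ARSB-null livers, without passing the adjusted threshold. Its signals were 9.15, 9.10 and 8.99 in the ARSB-null livers, against 9.40, 9.35 and 9.27 in the control livers. Every ARSB-null liver lay below every control liver, and in both groups mouse 4 was the highest and mouse 6 the lowest. The log2 difference was -0.26 (standard error 0.099, unadjusted p = 0.0355, adjusted p = 0.800 from limma), or 1.20-fold lower with a 95% interval of 1.02 to 1.41. With any array but that of ARSB-null mouse 4 left out, its unadjusted p was no longer under 0.05, and the highest of these was 0.115.

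Idi1, the isomerase of the next step, and Fdps, the farnesyl pyrophosphate synthase, had differences of 0.11 and 0.13. The Idi1 value rests on an uneven control group, with 11.60, 11.80 and 11.74 in the ARSB-null livers, against 11.89, 11.49 and 11.45 in the control livers. Control mouse 4 was thus the highest of all 6 livers while the other controls were the lowest, and a second, dimmer probe set of Idi1 also had control mouse 4 well above the other controls (11.46, 10.90 and 10.96 in control mice 4, 5 and 6). Without both arrays numbered 4 the difference was 0.30 (unadjusted p = 0.0255, adjusted p = 0.539 from limma), a setting in which the median of all the members was 0.10.

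From squalene to cholesterol, all 10 enzymes were measured, 8 with a higher and 2 with a lower mean. The step with the largest difference of any member was Hsd17b7, a reductase that acts in the removal of the methyl groups from the sterol ring. Its log2 signals were 10.13, 10.34 and 10.39 in the ARSB-null livers, against 10.73, 10.67 and 10.60 in the control livers. No ARSB-null liver reached the lowest control (SD 0.14 in ARSB-null and 0.064 in control, n = 3 each), with ARSB-null mouse 4 the lowest and control mouse 4 the highest. The log2 difference was -0.38 (standard error 0.11, unadjusted p = 0.0107, adjusted p = 0.654 from limma), or 1.30-fold lower with an interval of 1.09 to 1.56. Its unadjusted p stayed under 0.05 in all 17 other ways of processing, between 0.00436 and 0.0391, and its adjusted p was under 0.05 in none.

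Its neighbours in the same step did not share this direction. Msmo1, the methylsterol oxidase, and Nsdhl, the dehydrogenase that takes off the carboxyl group, work with Hsd17b7 on the same methyl groups. They had differences of 0.13 and 0.047, and the livers overlapped for both. Of the 16 measured enzymes, 12 had a higher mean in ARSB-null liver, and Hsd17b7, Mvd, Sqle and Mvk had a lower one.

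Sqle, the epoxidase often taken as a rate-limiting step, had 10.67, 10.87 and 10.73 in the ARSB-null livers, against 10.88, 10.90 and 10.80 in the control livers. Only ARSB-null mouse 5 reached into the control range, and the difference was -0.10 (standard error 0.10, adjusted p = 0.985 from limma). Ebp, the isomerase that shifts the ring's double bond, had the largest positive difference of the members. Its signals were 11.08, 11.18 and 11.39 in the ARSB-null livers, against 10.85, 11.04 and 11.10 in the control livers. Mouse 4 was the lowest and mouse 6 the highest of either group, and ARSB-null mouse 4 lay just under control mouse 6, so the groups overlapped (difference 0.22, standard error 0.13, adjusted p = 0.925 from limma).

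For the remaining enzymes of this stretch the livers of both groups overlapped. Fdft1, the squalene synthase, differed by 0.071, Lss, which closes the rings, by 0.091, and Cyp51, the lanosterol demethylase, by 0.14. The last desaturase and reductase, Sc5d and Dhcr7, differed by 0.027 and 0.032. Fdft1 had a second probe set on which the sign was turned (-0.062), so its direction is not settled by these arrays.

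**Figure D2:**
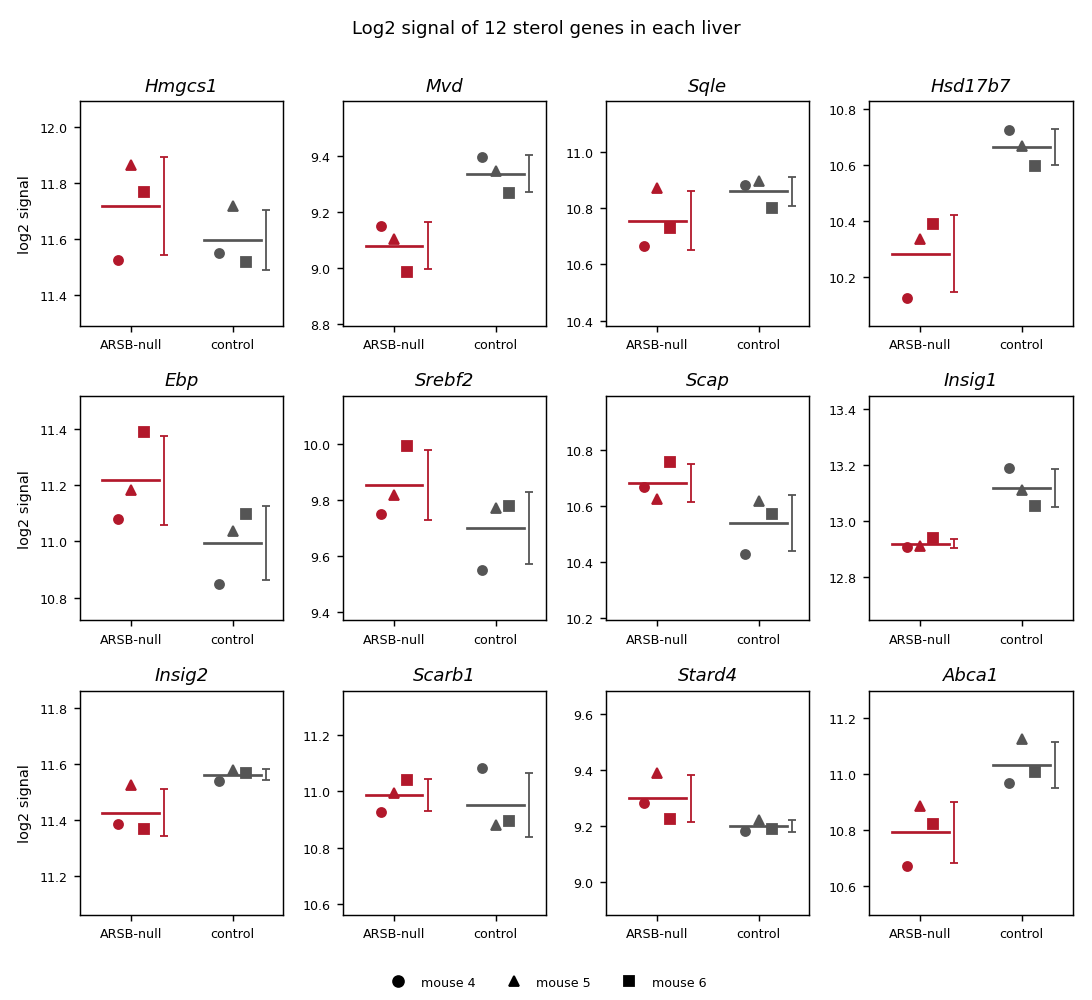
Log2 signal (vertical axis, panels of equal height in log2 units but with separate centres) of 12 sterol genes in each liver, ARSB-null left and control right, with circles, triangles and squares for mice 4, 5 and 6. Horizontal lines are group means and bars are the SD of 3 livers. For Hsd17b7 and Mvd every ARSB-null liver lies below every control liver, whereas for Hmgcs1 and Scarb1 the groups overlap.

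None of the 4 genes that hold or release SREBP2 passed the threshold, and their median log2 difference was 0.0040. The factor and its escort had higher means in ARSB-null liver, and both retention proteins had lower ones. Srebf2 had 9.75, 9.82 and 9.99 in the ARSB-null livers, against 9.55, 9.77 and 9.78 in the control livers, with overlap (difference 0.15, standard error 0.12, adjusted p = 0.973 from limma). Scap had 10.67, 10.62 and 10.76 in the ARSB-null livers, against 10.43, 10.62 and 10.57 in the control livers, and the groups met at ARSB-null mouse 5 and control mouse 5, which differed only past the second decimal (difference 0.14, adjusted p = 0.969 from limma).

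Insig1 is both a retention protein and a target of SREBP2. It was among the brightest members, at 12.91, 12.91 and 12.94 in the ARSB-null livers, against 13.19, 13.11 and 13.05 in the control livers. The ARSB-null livers were close to one another and all lay below the controls, and the difference was -0.20 (standard error 0.092, unadjusted p = 0.0697, adjusted p = 0.860 from limma). Insig2, whose liver transcript is known to fall with insulin, had 11.39, 11.53 and 11.37 in the ARSB-null livers, against 11.54, 11.58 and 11.57 in the control livers (difference -0.14, adjusted p = 0.967 from limma). The groups did not overlap, although ARSB-null mouse 5 lay close under control mouse 4.

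Uptake and movement of sterol were read on 4 genes, and the means differed by 0.10 at most. Scarb1 is the receptor through which hepatocytes take cholesterol esters from high-density lipoprotein. It had 10.93, 10.99 and 11.04 in the ARSB-null livers, against 11.08, 10.88 and 10.89 in the control livers, so that control mouse 4 was the highest and the other controls the lowest (difference 0.037, standard error 0.10, adjusted p = 0.994 from limma). Mylip, the ligase that marks lipoprotein receptors for breakdown, differed by 0.043. Stard4 carries sterol between membranes in the cytosol, and its signals of 9.28, 9.39 and 9.23 in the ARSB-null livers stood just above the 9.18, 9.22 and 9.19 of the control livers (difference 0.10, adjusted p = 0.985 from limma). Tmem97, a sterol-binding membrane protein, differed by -0.027 on its brightest probe set and by 0.10 on the other.

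Lcat was the measured esterification enzyme, and is made by the liver for plasma, where it esterifies the cholesterol of lipoproteins. It had a mean of 12.97 in ARSB-null and 13.05 in control liver, with overlap (difference -0.082, standard error 0.12). Control mouse 4 was again the highest of the 6, at 13.22.

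Both efflux transporters had a lower mean in ARSB-null liver, without passing the test. Abca1, which hands cholesterol and phospholipid to lipid-poor apolipoprotein, had 10.67, 10.88 and 10.82 in the ARSB-null livers, against 10.97, 11.12 and 11.01 in the control livers. The groups did not overlap, and the difference was -0.24 (standard error 0.11, unadjusted p = 0.0573, adjusted p = 0.843 from limma), or 1.18-fold lower with an interval that covers no change. Abcg1, which passes cholesterol to mature high-density lipoprotein and is strong in macrophages, was the dimmest member, at 8.37, 8.28 and 8.14 in the ARSB-null livers, against 8.47, 8.28 and 8.22 in the control livers. Its groups overlapped throughout (difference -0.060, standard error 0.12, adjusted p = 0.993 from limma).

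In whole liver, fewer cells of a type and less RNA in each cell cannot be told apart. The tissue label was borne out by hepatocyte markers, of which 9 of 10 were measured, with a mean log2 level of 13.56 to 13.65 in the ARSB-null livers and 13.54 to 13.59 in the control livers. Markers of lipid-laden macrophages had a mean level of 7.81 to 7.95 in ARSB-null and 6.85 to 6.96 in control livers. Of these, 9 of 10 had a higher mean, Fabp5 (-0.21) had a lower one, and the median difference was 0.77. The list holds Gpnmb, which had its largest difference (3.25). The paper reports that GPNMB protein also rose in HepG2 cells after ARSB silencing, so Gpnmb need not mark macrophages here. The mean level of the general macrophage markers overlapped (9.38 to 9.47 in ARSB-null, 9.21 to 9.57 in control, with a higher mean for 4 of 12), as did that of the hepatocyte ones. Single macrophage markers went both ways. Cd68 (0.53), C1qa (0.39) and Lyz2 (0.42) were higher without overlap (25.0% of the list, against 5.14% of all probe sets). Adgre1 (-0.35) and Csf1r (-0.33) were lower at an unadjusted p under 0.05 from limma (16.7%, against 3.19%), with overlap. The smallest adjusted p of that list was 0.448 from limma. Of 4 erythroid markers 3 were measured, with a level of 7.83 to 8.13 in ARSB-null and 8.53 to 8.77 in control livers, where Slc4a1 (difference -1.56) and Alas2 (-0.81) had the lower mean and Ermap (0.11) the higher. B cell markers, 3 measured of 4, had a level of 5.97 to 6.18 in ARSB-null and 6.19 to 6.44 in control livers, with a lower mean for 2 of the 3. Their median deviation from the mean of the 6 livers overlapped, at -0.40 to -0.011 in ARSB-null and -0.020 to 0.25 in control livers. The median deviation of the 6 stellate cell markers was -0.014 to 0.070 in ARSB-null and -0.094 to -0.020 in control livers, and that of the 4 measured cholangiocyte markers was -0.17 to 0.0086 in ARSB-null and 0.014 to 0.18 in control livers, although the mean levels of both lists overlapped. The part of the lists that did not overlap in the sterol values was not tested.

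Livers of the same group differed among themselves in a way most enzymes shared. ARSB-null mouse 4 was the lowest of its group for 13 of the 16 synthesis enzymes, and control mouse 6 the lowest of its group for 10 of 16. Taking each enzyme as its deviation from the mean of the 6 livers, the median enzyme stood at -0.066, 0.067 and 0.10 in ARSB-null mice 4, 5 and 6, against 0.0099, 0.035 and -0.084 in control mice 4, 5 and 6. The groups overlapped, and the difference between their means was under the SD within groups (0.077 pooled). Hepatocyte markers, taken the same way, stood at -0.028, 0.015 and 0.067 in ARSB-null livers, against -0.025, -0.0037 and -0.0081 in control livers, so that the ARSB-null livers ranked alike on both lists. What part the hepatocyte signal had in the enzyme values was not tested.

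**Figure D3:**
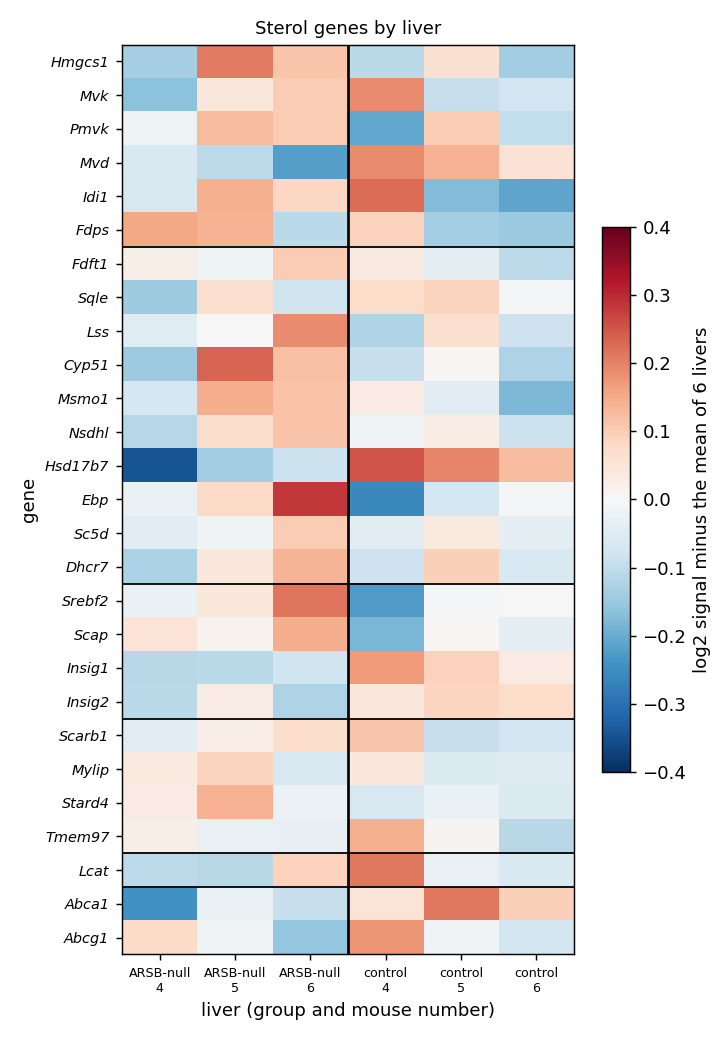
Deviation of each gene's log2 signal from its mean over the 6 livers (colour scale, red above and blue below), with genes in rows by function and livers in columns, ARSB-null 4, 5 and 6 left of control 4, 5 and 6. Most enzymes are blue in ARSB-null mouse 4 and control mouse 6, and Hsd17b7, Insig1 and Abca1 are blue in every ARSB-null liver.

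A further list of sterol genes, outside the set, held 28 genes, and 21 were measured. It takes in further synthesis enzymes, the lysosomal and plasma handling of sterol, the proteins that degrade Insig and sterol-regulated enzymes, and the canalicular transporters. In limma's test 0 had an adjusted p under 0.05, as in the methods' analysis of variance, and the smallest from limma was 0.348. With the mouse number as a block and only probe sets with 1 symbol, 1 passed, Vldlr, at an adjusted p of 0.0486 from limma. At an unadjusted p under 0.05, 1 was higher (4.76% of the list, against 2.75% of all probe sets) and 3 were lower (14.3%, against 3.19%). The median difference was -0.027. Abcg5 and Abcg8, which pass sterol into bile, differed by 0.030 and 0.12, and Lipa, the lysosomal acid lipase that frees cholesterol from its esters, by -0.0087.

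Vldlr, the receptor for very-low-density lipoprotein and a substrate of Mylip, had the largest difference of all sterol genes examined. Its signals were 7.14, 7.56 and 7.69 in the ARSB-null livers, against 6.66, 6.68 and 6.51 in the control livers. The groups did not overlap, with ARSB-null mouse 4 nearest to the controls, and the log2 difference was 0.85 (standard error 0.16, unadjusted p = 0.00109, adjusted p = 0.348 from limma), or 1.80-fold higher with an interval of 1.39 to 2.34. The control level was close to the arrays' medians.

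The other 3 were proteins of the sterol-sensing machinery or its traffic. Rnf139, a ubiquitin ligase of the endoplasmic reticulum, had 8.47, 8.83 and 8.83 in the ARSB-null livers, against a range of 8.98 to 9.08 in the control livers (difference -0.31, adjusted p = 0.829 from limma). Erlin1, a membrane scaffold that binds the SREBP, Scap and Insig complex, had 9.60, 9.77 and 9.74 in the ARSB-null livers, against 9.91, 9.95 and 9.98 in the control livers (difference -0.24, adjusted p = 0.831 from limma). Gramd1c, which moves cholesterol inward from the plasma membrane, had 9.05, 9.24 and 9.17 in the ARSB-null livers, against 9.51, 9.39 and 9.34 in the control livers (difference -0.26, adjusted p = 0.813 from limma). ARSB-null mouse 4 was the lowest liver for all 3, as for Hsd17b7 and Abca1.

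The fatty acid genes run by the sister factor SREBP1 were read beside the sterol genes. Of 10 listed, 9 were measured, all 9 had a lower mean in ARSB-null liver, and 3 (33.3%, against 3.19% of all probe sets) were lower at an unadjusted p under 0.05, with a smallest adjusted p of 0.378 from limma. Srebf1 had 10.38, 10.25 and 10.48 in the ARSB-null livers, against 10.80, 10.91 and 10.71 in the control livers, with no overlap (difference -0.43, standard error 0.11, adjusted p = 0.545 from limma). Me1, the malic enzyme that supplies NADPH, differed by -0.72 (adjusted p = 0.378 from limma), and Thrsp, a lipogenic regulator, by -0.82 (adjusted p = 0.838 from limma), the Thrsp groups overlapping. The livers ranked differently here than for the sterol enzymes, with ARSB-null mouse 5 the lowest of its group on the median gene (-0.34) while it stood at 0.067 on the sterol enzymes.

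Clock genes were read because sterol synthesis follows the hour and the last meal. Of 15 listed, 13 were measured, 3 with a higher and 10 with a lower mean, and 1 in each direction (7.69% of the list) had an unadjusted p under 0.05, against 2.75% of all probe sets higher and 3.19% lower. Cry1, a repressor of the clock, had 6.36, 6.67 and 6.65 in the ARSB-null livers, against 6.81, 7.09 and 6.93 in the control livers (difference -0.39, adjusted p = 0.743 from limma). Bhlhe41, another repressor, had 6.44, 5.37 and 5.66 in the ARSB-null livers, against 5.14, 4.97 and 5.13 in the control livers (difference 0.75, adjusted p = 0.760 from limma), and ARSB-null mouse 4 was far above the rest. Every Bhlhe41 signal lay below the arrays' medians of 6.50 to 6.60, and the Cry1 signals lay on either side of them. Nr1d1, a nuclear receptor of the clock, differed by 0.27 with overlap (adjusted p = 0.910 from limma). Some other clock genes spread widely among the ARSB-null livers. Mice 4, 5 and 6 had 9.96, 8.70 and 9.23 for Dbp, 8.86, 7.85 and 9.51 for Per1, and 7.73, 6.69 and 8.42 for Ciart. Mouse 5 was the lowest of its group for these and the highest for Arntl. The SD was 0.63, 0.84, 0.87 and 0.41 for Dbp, Per1, Ciart and Arntl in ARSB-null, against 0.41, 0.33, 0.39 and 0.083 in control. Nr1d2 and Cry2 spread less (SD 0.036 and 0.062 in ARSB-null). What part hour and feeding had in the sterol values was not tested.

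**Figure D4:**
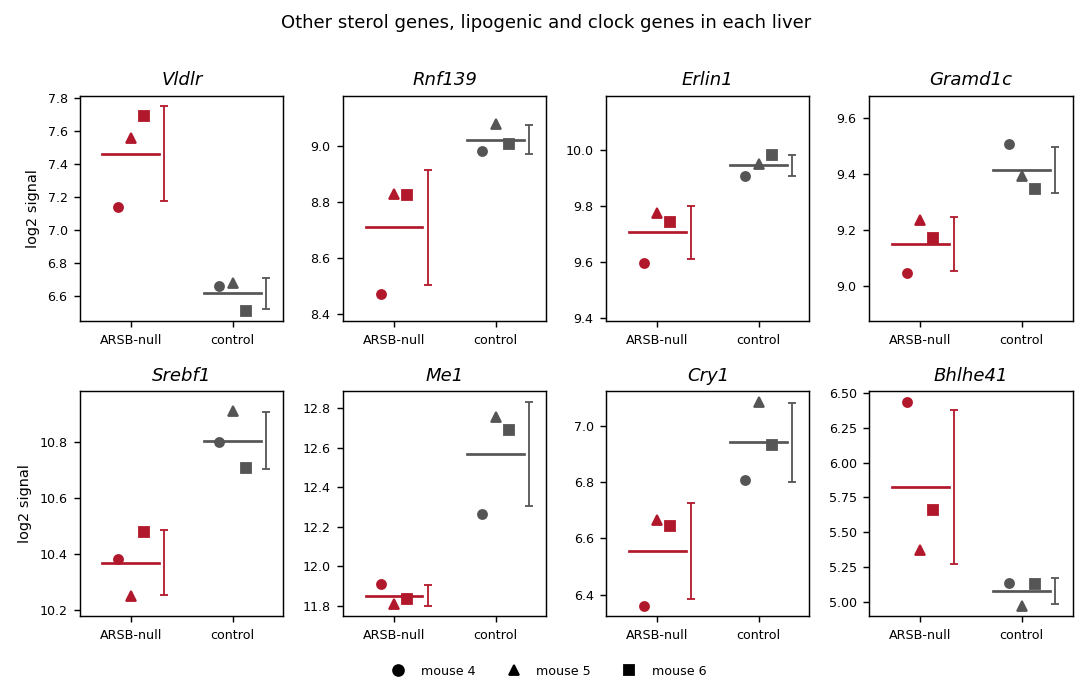
Log2 signal (vertical axis, ranges differ) in each liver of 4 other sterol genes (top row), 2 lipogenic genes and 2 clock genes (bottom row), ARSB-null left and control right, with group means and the SD of 3 livers. Vldlr and Bhlhe41 are higher and the other 6 lower in every ARSB-null liver than in any control liver, and none had an adjusted p under 0.05 in the comparison without the mouse number as a block.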

How the data were processed

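Hepatic RNA from 6 mice was hybridized to 1 mouse gene array each. The authors deposited an array-wide list of log2 signals for each liver, summarized by probe set after quantile normalization, a step that removes any shift shared by most genes. RMA and Partek are named in the submitters' notes without versions, and detection calls were not used. The methods name a second-generation array, whereas the probe set numbers are those annotated for the first.

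Of 35556 probe sets, 21789 had 1 symbol, 1621 several and 12146 were not listed. Groups, taken from sample titles, were compared over all probe sets with limma 3.58.1 in R 4.3.3 (lmFit, eBayes, two-sided, Benjamini-Hochberg, threshold 0.05), after the procedure was tested on simulated data.

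Members and lists were chosen with earlier results of these data known, so no p over a list was computed. Every liver is given for a fixed set (Hmgcs1, Sqle, Insig1, Srebf2, Scarb1, Abca1, Abcg1), for members with an unadjusted p under 0.05 and for the 3 largest differences in each direction. Those of Insig2, Stard4 and Idi1 were added after their values were seen. Other sterol genes were named at an unadjusted p under 0.05 (Abcg5, Abcg8 and Lipa after their values were seen), and up to 3 genes of the fatty acid and clock lists by p. Dbp, Per1, Ciart, Arntl, Nr1d2, Cry2 and the single general macrophage markers were also named after their values were seen.

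Same-numbered mice deviated together from their group means (correlation over probe sets 0.396, 0.159 and 0.193 for mice 4, 5 and 6, each over 0.1), although ARSB-null mouse 6 correlated more with control mouse 5 (0.220) than with its own number, and what a number stands for is not stated. A fit with the number as a block was therefore among the alternatives, with other priors, scalings, filters, array weights, the methods' analysis of variance and arrays left out.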

Additional observations from a re-analysis of the deposited data

How the results depend on the processing

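No member passed an adjusted p of 0.05 in any of the 17 other settings, and no value that had an unadjusted p under 0.05 changed direction. The count of members with an unadjusted p under 0.05 was 2, where 5.94% of all probe sets were under it. It was 4 with robust eBayes and a trend (6.54% of all probe sets), with the methods' analysis of variance (6.56%), with array weights (10.8%), and with the replicate block fitted on probe sets with 1 symbol (11.4%). It was 1 to 2 with 1 array left out. The replicate block alone gave 3, and 0 past the adjusted threshold, so the pairing changed no call of a member. With the replicate block on probe sets with 1 symbol, 1 other sterol gene passed the adjusted threshold, Vldlr at 0.0486; its adjusted p over all the alternatives lay between 0.0486 and 0.835. The median difference of the members lay between 0.010 and 0.10 and that of the synthesis enzymes between 0.030 and 0.12, shifts within the SD between livers. Of the 459 values of members under alternatives, 19 had the other sign, in 6 genes whose difference was 0.082 or less in size. Centring each array on its median moved the median of all probe sets to -0.031. The 3 arrays a group limit the precision to the intervals given.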
